A study of Mus musculus with 4 samples.

Results

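The epithelial keratins Krt7, Krt8, Krt18, Krt19, Krt20 and Krt23 were read by every probe for a gene, as opposed to a control, whose gene name on the array is one of these symbols. The rule gave 8 probes for 6 genes, of 27827 gene names and 41174 probes on the array, and all 8 probes passed the filter on dim signals. Another 40 keratin genes of the array served for comparison.

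Keratins are the intermediate filament proteins of epithelial cells. Each filament pairs a type I with a type II keratin, and the partners stabilise each other, so that the 2 classes are usually made together. Krt7 and Krt8 are type II, and Krt18, Krt19, Krt20 and Krt23 are type I. In the intestine Krt8 with Krt18 and Krt19 forms the filament network of all epithelial cells, while Krt20 is known as a keratin of differentiated intestinal cells. Filaments are anchored to cell junctions by desmosomes and by plakins, large linker proteins.

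The RNA came from sorted crypt cells of the normal colon of adult mice that carry the Lgr5_EGFP-ires-CreERT2 knockin, in which GFP is made under the Lgr5 promoter. One population was sorted for GFP (labelled Lgr5-GFP) and the other for a high level of CD24 with a PE-conjugated antibody (labelled CD24hi), which by the design text yields a subset of goblet cells. The knockin is the background of the whole design, strain and sex are not given in the labels, and no unsorted or wild-type cells were compared. Both RNAs were hybridised together to 4 arrays as 2 replicates, each with Lgr5-GFP RNA in Cy3 on its first array and in Cy5 on its dye swap. The comparison asks which keratins differ between the populations.

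The genes behind both sorts went against the labels. Lgr5 was 10.6-fold lower in RNA labelled Lgr5-GFP (log2 ratio -3.41 ± 0.29, SD, n = 2 replicates; limma, adjusted p = 5.53e-04), although a second Lgr5 probe, too dim for the filter, had 0.07 and 0.05 in the replicates. Cd24a was 4.35-fold higher there (2.12 ± 0.30; limma, adjusted p = 6.98e-04). The kept Lgr5 probe had values on 3 arrays, without the dye swap of replicate 1, and Cd24a on 4. All 5 cycling markers measured and 5 of 6 stem markers were lower in RNA labelled Lgr5-GFP. Of the goblet markers 7 of 10 were higher there, as were 8 of 8 tuft and 4 of 7 enteroendocrine markers. Of all 14802 genes tested, 21.9% were higher there and 26% lower. Directions are given by the labels throughout and would all turn if the labels were exchanged.

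One array stood apart. On the dye swap of replicate 1 the scanning software marked 75.3% of gene spots as outliers, against 0.231% to 0.399% on the others, and marked spots were left out. No keratin spot was among them: 0 of 32 were marked and 0 were saturated. Genes without a value on the dye swap of replicate 1 have replicate 1 from its first array alone, in 1 dye order, unlike the keratins. The keratin spots lay between 10.2 and 2021 times their local background, and the SD over pixels of a spot was 7.16% to 32.9% of its mean. However, the median gene spot of that array had a signal of 4377 in RNA labelled Lgr5-GFP and 1358 in RNA labelled CD24hi. On the other arrays these medians were 94.2 to 197. Distance from local background is therefore a weak measure of a keratin signal on that array. Turned to the same direction, the arrays correlated at 0.710 to 0.955 across probes, a description only since probes are not replicates. The replicates were on different slides, and the effects of slide and replicate cannot be told apart. Nothing in the labels tells whether they are separate animals. The p-values therefore cover the spread between these samples alone, which may be technical.

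The array reads each keratin through short probe sequences, and those of the keratins on which the results turn are shown to place each value in its transcript. Krt7 and Krt8 have 2 probes each. The capitals mark the stop codon, where the probe crosses it, and sequences are in the sense of the mRNA, 5′ to 3′. For the Krt8 and Krt7 probes nearer to the 3′ end and for Krt20, only the first 30 of 60 bases are given.
Krt20, probe A_52_P445360, first 30 bases: ataagaacacagcacaaggtgattgacatg
Krt8, probe A_51_P242399: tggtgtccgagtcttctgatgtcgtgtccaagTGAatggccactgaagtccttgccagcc
Krt8, probe A_51_P242400, first 30 bases: ccgaggatcagccctaatcctctggccaac
Krt18, probe A_51_P324814: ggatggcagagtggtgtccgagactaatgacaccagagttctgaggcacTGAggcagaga
Krt7, probe A_52_P410685: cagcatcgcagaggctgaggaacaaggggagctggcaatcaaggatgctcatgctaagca
Krt7, probe A_51_P312348, first 30 bases: tggaagatagtctgaaactgctgttggctt
In build mm9, as the array annotation gives it, the Krt20 probe lies at chr11:99289776-99289835 on the minus strand. The Krt8 probes lie at chr15:101827346-101827405, across the stop codon, and at chr15:101827214-101827273, further 3′, both on the minus strand. Krt18 is read at chr15:101862341-101862400 on the plus strand, also across its stop codon, with 8 bases after it. Krt7 is read at chr15:101253718-101253777, starting at base 1065 of its transcript (the upstream probe), and at chr15:101258172-101258231, starting at base 1497 (the 3′ probe), both on the plus strand. The Krt19 probe lies at chr11:100002392-100002451 and the Krt23 probe at chr11:99339393-99339452, both on the minus strand. In RefSeq's gene order Krt8 and Krt18 are neighbours, as are Krt20 and Krt23.

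The keratins did not move as a group. Of the 8 probes, the single Krt20 probe was higher in RNA labelled Lgr5-GFP, both Krt8 probes were lower, and the 5 probes of Krt7, Krt18, Krt19 and Krt23 were not called. A call is an adjusted p under 0.05 over 20616 probes in limma, which pools the estimate of spread across probes. Over all probes 22.5% were called higher and 23.8% lower, so neither count of keratin probes is a result about the class. Their log2 ratios ran from -0.70 to 0.996, where the median of all probes was -0.05. In sorted RNA, fewer cells of a type and less RNA per cell cannot be told apart.

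**Figure D1:**
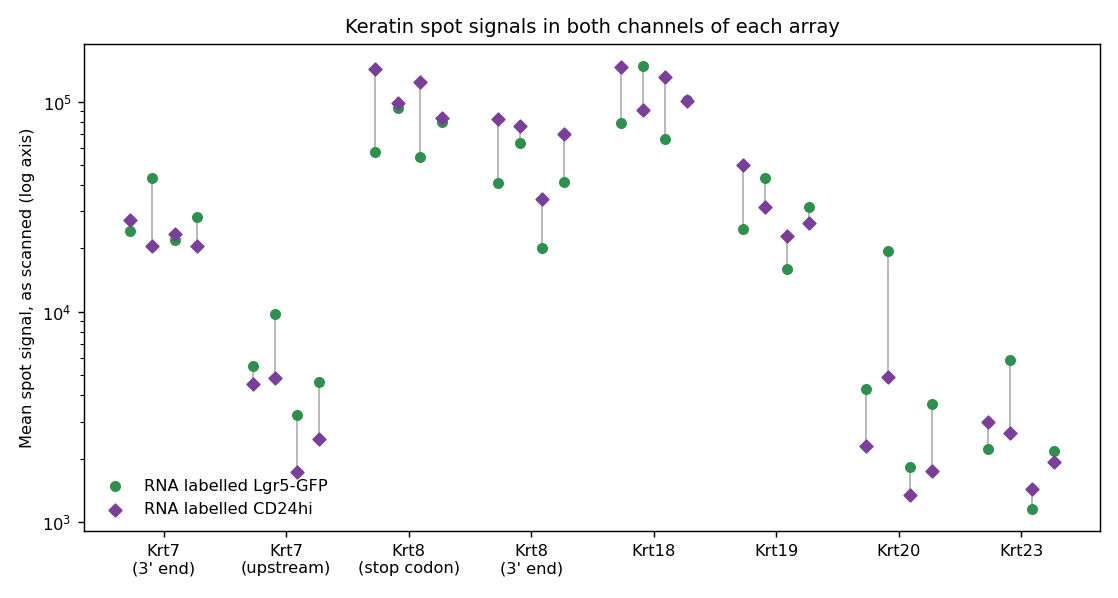
Mean spot signal as scanned (vertical log axis) of the 8 keratin probes on the 4 arrays, with the RNA labelled Lgr5-GFP as green circles and the RNA labelled CD24hi as purple diamonds. Within each probe the arrays stand from left to right as replicate 1 first array and dye swap, then replicate 2 first array and dye swap, and a line joins the channels of 1 array. Signals of different probes are not comparable as levels. The green point lies above the purple one on all 4 arrays for Krt20 and for the upstream Krt7 probe, and below it on all 4 for both Krt8 probes. On the dye swap of replicate 1 the median gene spot is also higher in the RNA labelled Lgr5-GFP (4377 against 1358). After normalization the upstream Krt7 probe has a log2 ratio of -0.49 there.

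Krt20, the type I keratin of differentiated intestinal cells, had the highest mean ratio of the 8 probes and the closest replicates. Where 4 array values are listed, the order is replicate 1, first array then dye swap, followed by replicate 2 likewise. The Krt20 signals were 4306, 19481, 1831 and 3654 in RNA labelled Lgr5-GFP and 2289, 4887, 1341 and 1744 in RNA labelled CD24hi. On each array the signal of the RNA labelled Lgr5-GFP was the higher one, whichever dye it carried. On the dye swap of replicate 1 the median gene spot was also higher in that RNA, at 4377 against 1358. After normalization the log2 ratios were 1.53, 0.41, 1.05 and 0.99, all above 0, with the dye swap of replicate 1 the lowest. The replicate means were 0.97 and 1.02, and Krt20 was 1.99-fold higher in RNA labelled Lgr5-GFP (0.996 ± 0.036, SD, n = 2; limma, adjusted p = 0.00215). The arrays of replicate 1 differed by 1.12 on the log2 scale and those of replicate 2 by 0.07, so the small SD between replicates is that of means over unlike arrays.

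The Krt20 ratio stayed above 0 under all 16 processing alternatives (0.71 to 1.28) and was called in 12 of the 14 that allow a test. It was not called with spots of non-uniform local background kept in the background fit (0.77; limma, adjusted p = 0.0607) or without the first array of replicate 1 (0.71; limma, adjusted p = 0.196), where 6965 probes were left to test. Surface colonocyte markers stood beside it: 6 of 12 were higher in RNA labelled Lgr5-GFP and 0 lower, against 21.9% of all 14802 genes higher and 26% lower, with a median log2 ratio of 0.40. Their ratios were uneven, with 9 of 12 above 0. Guca2a (3.05) and Guca2b (1.62) had the largest, while Slc26a3 (-0.49) and Car4 (-0.13) were among those below 0 and not called. With median centring, in which each array is centred on its median in place of the loess curve that evens out the dyes, the counts were 3 higher and 1 lower, against 15.2% and 37.1% of all genes. Goblet markers had a median of 2.70, tuft markers of 1.92 and enteroendocrine markers of 2.96. Of the goblet markers 9 of 10 were above 0, Tff3 (-0.95, not called) being the exception. Among enteroendocrine markers, Gcg (-1.69 and 2.01 in replicates 1 and 2) and Pyy (-0.94 and 2.48) split by replicate and were not called. The part of these cell types in the Krt20 ratio was not tested.

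Krt8, the type II keratin that pairs with Krt18, Krt19 and Krt20, was lower in RNA labelled Lgr5-GFP by both of its probes. At the stop codon probe the signals were 57311, 92884, 54785 and 80009 in RNA labelled Lgr5-GFP and 142463, 98562, 123416 and 83145 in RNA labelled CD24hi. The log2 ratios were -0.69, -0.90, -0.59 and -0.27, below 0 on every array. The mean was 1.53-fold lower (-0.61 ± 0.26, SD, n = 2, with replicates at -0.80 and -0.43; limma, adjusted p = 0.0172).

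The 3′ probe of Krt8 had signals of 41010, 63738, 20107 and 41468 in RNA labelled Lgr5-GFP and 82241, 76261, 34368 and 69815 in RNA labelled CD24hi. Its log2 ratios were -0.39, -1.26, -0.22 and -0.95, again below 0 on every array, with the dye swaps lower than the first arrays. The mean was 1.63-fold lower (-0.70 ± 0.17, replicates at -0.83 and -0.58; limma, adjusted p = 0.00796). The Krt8 probes differed from each other by 0.09 on average, with the stop codon probe the higher on 2 of 4 arrays. They share a transcript and are not independent replicates.

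Both Krt8 ratios kept their sign under every alternative run, at -0.90 to -0.31 for the stop codon probe and -0.94 to -0.49 for the 3′ probe. The stop codon probe was called in 10 of 14 tested alternatives and the 3′ probe in 9 of 13. Calls were lost with non-uniform backgrounds kept (-0.31 and -0.64; limma, adjusted p = 0.457 and 0.0705), with the signals as processed by the scanner software (-0.43 and -0.56; adjusted p = 0.178 and 0.0658) and without the first array of replicate 1 (-0.66 and -0.92; adjusted p = 0.241 and 0.0707). The stop codon probe also lost its call with marked spots kept (-0.87; adjusted p = 0.0693), and the 3′ probe without the dye swap of replicate 2 (-0.52; adjusted p = 0.0744). Stem and cycling markers lay on the same side with larger ratios, at medians of -1.87 and -2.98, and their part in the Krt8 ratio was not tested. Of the 6 pan-epithelial markers, Cdx2 (-0.63 ± 0.39; limma, adjusted p = 0.0261) and Elf3 (-0.44 ± 0.01; adjusted p = 0.0275), both intestinal epithelial transcription factors, were lower too. Epcam (-0.28 ± 0.14) and Cdh1 (-0.34 ± 0.15), adhesion proteins of all epithelial cells, were not called (adjusted p = 0.117 and 0.0733), nor was Vil1, which encodes villin of the microvilli (0.09 ± 0.24).

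**Figure D2:**
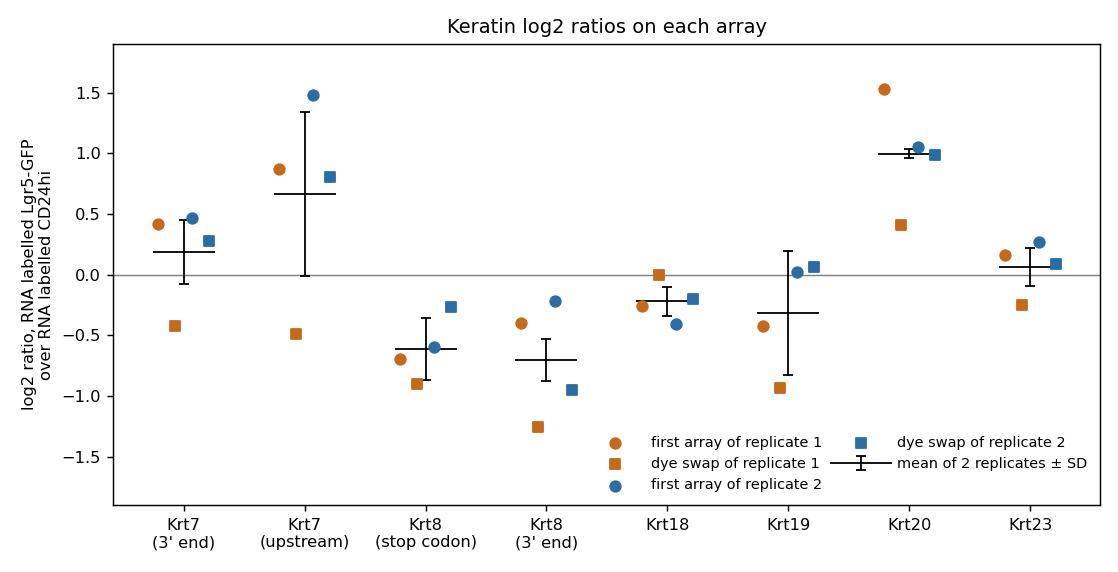
Log2 ratio of the RNA labelled Lgr5-GFP over the RNA labelled CD24hi for the 8 keratin probes, with 1 point per array (colour for the replicate, circle for the first array, square for the dye swap), a line at the mean of the 2 replicates and bars of 1 SD. All 4 Krt20 points lie above 0 and all points of both Krt8 probes below 0, and the dye swap of replicate 1 is the lowest point of 7 of the 8 probes, Krt18 being the exception.

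Krt18, the type I partner of Krt8, did not follow it past the threshold. Its signals were 78762, 147547, 66392 and 102266 in RNA labelled Lgr5-GFP and 145469, 91460, 131382 and 101031 in RNA labelled CD24hi. The higher channel was the one labelled with Cy5 on each array. After normalization the log2 ratios were -0.26, -0.0036, -0.40 and -0.20, and the mean was -0.22 ± 0.12 (n = 2, replicates at -0.13 and -0.30; limma, adjusted p = 0.202). With median centring it was called lower (-0.53; limma, adjusted p = 0.0205), and with non-uniform backgrounds kept it turned to 0.11. On the same array, the stop codon probe of Krt8 was below Krt18 on 4 of 4 arrays (mean difference of log2 ratios -0.40) and the 3′ probe on 3 of 4 (-0.49). Whether the partners differ was not tested beyond these counts.

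Krt19, a small type I keratin of simple epithelia and the other common partner of Krt8, split by replicate. Its log2 ratios were -0.42 and -0.93 on the arrays of replicate 1 and 0.02 and 0.07 on those of replicate 2. The replicates thus did not overlap, and their mean of -0.32 ± 0.51 was not called (limma, adjusted p = 0.228). It was not called under any tested alternative, and its range was -0.68 to 0.04. Before normalization its signals were 24720, 43108, 15915 and 31432 in RNA labelled Lgr5-GFP and 50180, 31673, 23017 and 26572 in RNA labelled CD24hi, the Cy5 channel being the higher on all arrays.

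Krt7, a type II keratin best known from ducts and other simple epithelia, had probes that differed. The upstream probe had log2 ratios of 0.87, -0.49, 1.48 and 0.81, a spread of replicate means from 0.19 to 1.14, and an average of 0.67 ± 0.67 (limma, adjusted p = 0.0631). At the 3′ probe they were 0.41, -0.42, 0.47 and 0.28, with a mean of 0.18 ± 0.27 (adjusted p = 0.332). Both probes were above 0 on 3 arrays and below 0 on the dye swap of replicate 1. The upstream probe was the higher of the pair on 3 of 4 arrays, by 0.48 on average. Without the dye swap of replicate 1 both were called higher (1.01 and 0.39; limma, adjusted p = 5.95e-04 and 0.0184). With all 4 arrays kept, the upstream probe was called at an offset of 16 in place of 50 in the background correction (0.70; adjusted p = 0.0424) and with probes kept only if above background in both populations (0.67; adjusted p = 0.0440).

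Krt23, a type I keratin whose gene neighbours Krt20, had log2 ratios of 0.16, -0.25, 0.27 and 0.08 and a mean of 0.07 ± 0.16 (limma, adjusted p = 0.708). It was not called under any tested alternative, and its sign turned in 6 of 16. Krt20 exceeded Krt23 on 4 of 4 arrays, by 0.93 on average.

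The order of the keratin ratios was also read within each array. On each of the 4 arrays Krt20 lay above Krt18, Krt19, Krt23 and both Krt8 probes, with mean differences of log2 ratio of 1.21, 1.31, 0.93, 1.61 and 1.70. It was not the highest on every array. The upstream Krt7 probe lay above it on the first array of replicate 2 (1.48 against 1.05) and below it on the others. Both Krt7 probes lay above both Krt8 probes on all 4 arrays, by 0.80 to 1.37 on average. Neighbours in the order did not separate: Krt8 lay above Krt19 on 1 of 4 arrays for either probe, and the mean ± 1 SD of Krt19 overlapped that of Krt18 and that of Krt23. These differences were not tested.

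The correction by the loess curve was as large as most keratin ratios. It moved the keratin log2 ratios by 0.52 to 0.62 on both first arrays, by -0.69 to -1.59 on the dye swap of replicate 1 and by -0.05 to -0.22 on that of replicate 2. Before the correction Krt20 had 0.97, 1.999, 0.53 and 1.05, and the upstream Krt7 probe 0.30, 1.02, 0.96 and 0.89, all above 0. The stop codon probe of Krt8 had -1.31, -0.09, -1.17 and -0.06, and the 3′ probe -1.003, -0.26, -0.77 and -0.75, all below 0. For Krt18, Krt19, Krt23 and the 3′ probe of Krt7 the uncorrected sign followed the dye, negative on both first arrays and positive on both dye swaps.

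**Figure D3:**
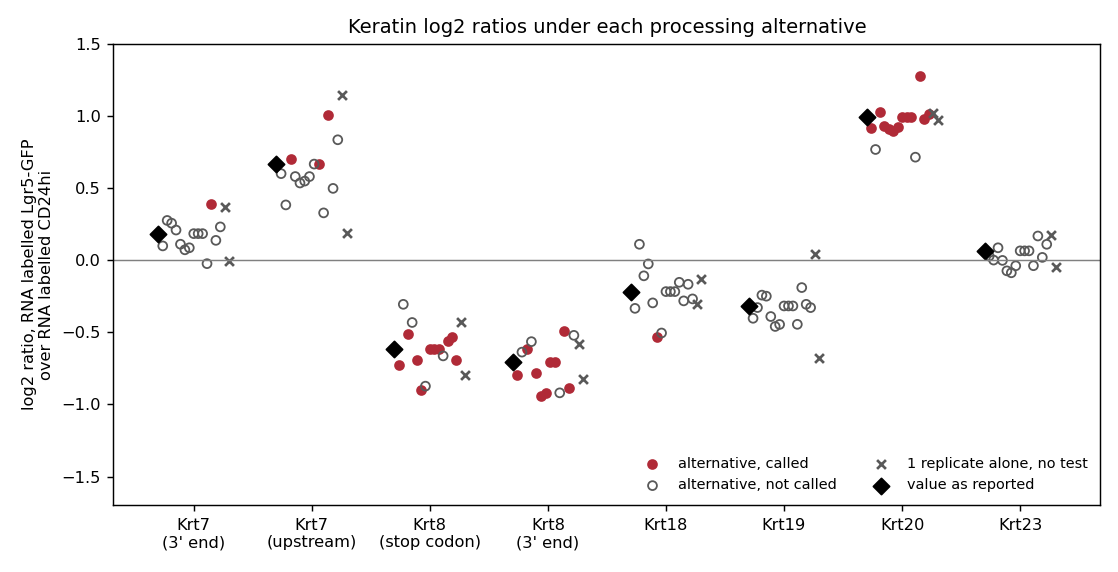
Log2 ratio of the RNA labelled Lgr5-GFP over the RNA labelled CD24hi for each keratin probe as reported (black diamond) and under each processing alternative, filled red where limma called it, open where it did not, and crosses for 1 replicate alone, which allows no test. Krt20 stays between 0.71 and 1.28 and the Krt8 probes between -0.94 and -0.31, while Krt18, Krt19, Krt23 and the 3′ probe of Krt7 have values on both sides of 0.

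The wider keratin family was mostly dim. Of the 40 other keratin genes on the array, 13 had a probe that passed the filter and 27 had none. Krt85 and Krt87, type II keratins of hair, were higher in RNA labelled Lgr5-GFP (0.77 ± 0.01 and 0.44 ± 0.01; limma, adjusted p = 0.00444 and 0.0277), and 0 were lower. Over all genes 21.9% were higher and 26% lower, so 2 of 13 is no result about the family. The Krt85 ratio rests on 3 arrays, since its spot on the dye swap of replicate 1 was marked, and its signals were dim, starting from 199.97 in RNA labelled Lgr5-GFP and 137 in the other. Krt87 is listed under the older name Krt83 on the array. Its lowest signals were dimmer still, at 106 in RNA labelled Lgr5-GFP and 110 in the other, and its highest were 32902 and 8611. Such a range is no measure of its level. The median gene spot itself had 4377 and 1358 on the dye swap of replicate 1, and 94.2 to 197 on the other arrays.

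The 11 other keratins with a kept probe were not called. Krt86 had 0.33, Krt13 0.29, Krt1 0.24, Krt36 0.22, Krt84 0.11 and Krt88 0.07 as mean log2 ratios. Krt16 had -0.09, Krt14 -0.11, Krt17 -0.21, Krt15 -0.27 and the brighter Krt10 probe -0.30. Several of these are keratins of stratified epithelia. Among 11 markers of the squamous epithelium of the anal canal, which a colon sample could hold, 6 had a kept probe and 0 were called (median 0.07; 1 higher without the dye swap of replicate 1, 2 lower with median centring), and Krt5, Krt4, Krt6a, Trp63 and Dsg3 had none. With median centring the count for the other keratins was 1 higher and 3 lower and their median went from 0.11 to -0.05. Without the dye swap of replicate 1 the count was 3 and 0. Among all genes 15.2% were higher and 37.1% lower with median centring, and 26.8% and 30.6% without that array.

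Genes that anchor keratin filaments went in both directions. Of 15 desmosome and plakin genes, all measured, 2 were higher and 5 lower in RNA labelled Lgr5-GFP (median -0.14), where 21.9% of all 14802 genes were higher and 26% lower (median -0.07). Pkp1, a plakophilin of the desmosome plaque, was 2.69-fold lower (-1.43 ± 0.33; limma, adjusted p = 0.00166), and Dsp, the desmoplakin that ties keratins to desmosomes, 2.45-fold lower (-1.29 ± 0.17; adjusted p = 0.00136). Evpl, which encodes the plakin envoplakin, was lower by 1.83-fold (-0.87 ± 0.07; adjusted p = 0.00326). Pkp4 (-0.51) and Pkp2 (-0.42), further plakophilins, were lower as well. Dst and Macf1, plakins that link filament systems, were higher (0.66 ± 0.05 and 0.59 ± 0.02; adjusted p = 0.00753 and 0.0110), Dst being well above background in RNA labelled CD24hi on 2 of 4 arrays. Plec, which encodes plectin (0.60 ± 0.54), and Jup, plakoglobin (0.39 ± 0.13), were not called (adjusted p = 0.0543 and 0.0501). The ratios of Dsp, Evpl, Macf1 and Jup rest on 3 arrays, with no value on the dye swap of replicate 1. The counts were 4 higher and 6 lower without the dye swap of replicate 1 and 1 and 7 with median centring. The shares of all genes were 26.8% higher and 30.6% lower without that array, and 15.2% and 37.1% with median centring.

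Of 9 genes for proteins reported to bind, modify or fold keratins, 1 was higher and 2 lower (median -0.13). As 21.9% of all genes were higher and 26% lower (median -0.07), these counts are no result about the list. Prkce, protein kinase C epsilon, was 2.11-fold higher (1.08 ± 0.16; limma, adjusted p = 0.00213). Pnn, pinin, a protein of desmosomes and of nuclear speckles, was 2.13-fold lower (-1.09 ± 0.50; adjusted p = 0.00676), and Hspa8, the constitutive Hsc70 chaperone, 1.85-fold lower (-0.89 ± 0.13; adjusted p = 0.00346). The Pnn ratio rests on 3 arrays, with no value on the dye swap of replicate 1. The 14-3-3 genes Ywhaz (-0.53 ± 0.51) and Ywhae (-0.37 ± 0.11), whose proteins bind phosphorylated keratin 18, were not called (adjusted p = 0.06996 and 0.0554). The split was 2 and 3 without the dye swap of replicate 1, and 1 higher and 6 lower with median centring. Of all genes, 26.8% were higher and 30.6% lower without that array, and 15.2% and 37.1% with median centring.

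Among 14 other intermediate filament genes 6 were measured, of which 1 was higher and 2 lower (median -0.16; 2 and 2 without the dye swap of replicate 1). With 21.9% of all genes higher and 26% lower (26.8% and 30.6% without that array), these counts are no result about the list. Lmnb1 and Lmnb2, the B-type lamins of the nuclear envelope, were 5.22-fold and 1.93-fold lower in RNA labelled Lgr5-GFP (-2.38 ± 0.50 and -0.95 ± 0.37; limma, adjusted p = 8.37e-04 and 0.00634). Nefl, a neurofilament subunit, was higher (0.53 ± 0.16; adjusted p = 0.0193), and its probe was well above background in RNA labelled CD24hi on 2 of 4 arrays. Vim, vimentin of mesenchymal cells, was not called (0.36 ± 0.03; adjusted p = 0.0515), nor was Lmna, the A-type lamin (-0.16 ± 0.40). Of 6 immune markers 2 had a kept probe and 0 were called, and of 8 stromal and endothelial markers 2 had one, of which Col1a2, a fibrillar collagen chain, was higher (0.44 ± 0.16; adjusted p = 0.0365), but not with median centring. Lmnb1, Nefl, Vim and Col1a2 have values on 3 arrays, without the dye swap of replicate 1.

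**Figure D4:**
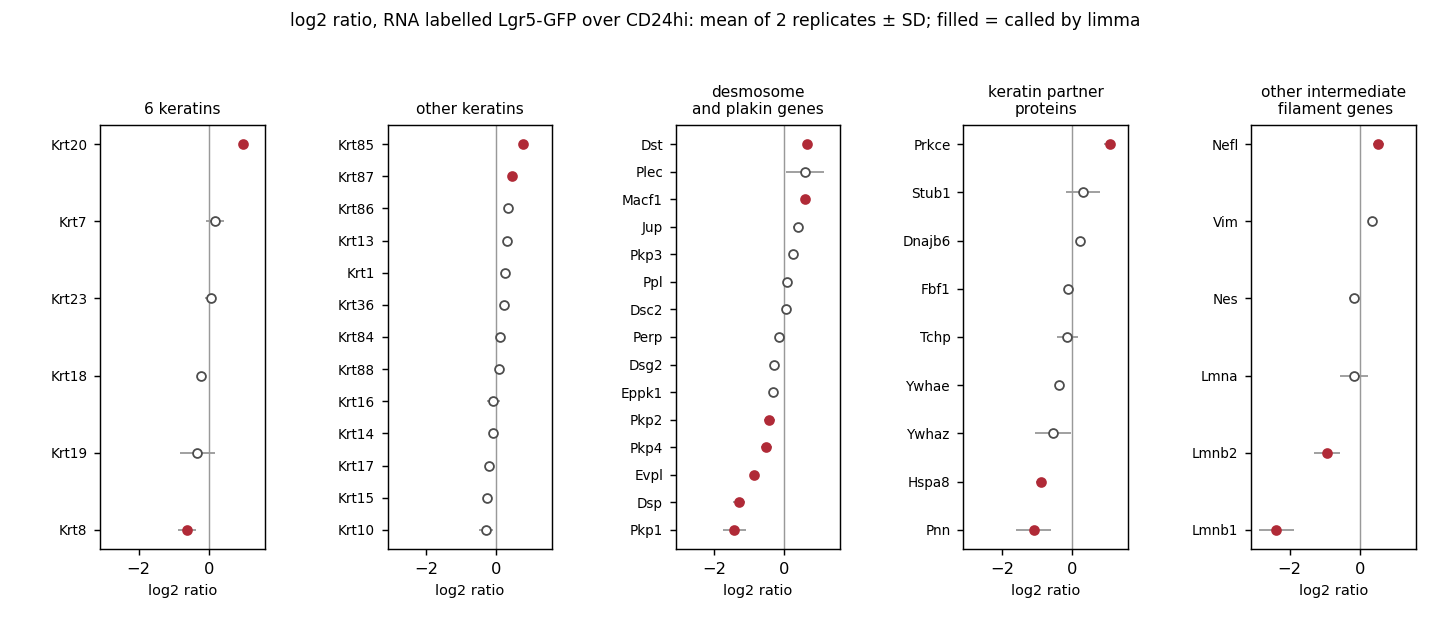
Mean log2 ratio of the RNA labelled Lgr5-GFP over the RNA labelled CD24hi, ± SD over 2 replicates, for 1 probe a gene (the brightest kept) in the 6 keratins, the other keratins, desmosome and plakin genes, keratin partner proteins and other intermediate filament genes. Filled points were called by limma. Genes without a value on the dye swap of replicate 1 have replicate 1 from its first array alone. The 6 keratins span -0.61 to 0.996, while desmosome and plakin genes reach -1.43 (Pkp1) and lamins -2.38 (Lmnb1).

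The pattern of Krt20 over the arrays was compared with that of 14783 genes by the root mean square difference of log2 ratio. The nearest were Vav1 (0.0388), Tom1 (0.0457) and Gsdma (0.0530), each over 3 arrays, since none has a value on the dye swap of replicate 1. For the 3′ probe of Krt8 the nearest named genes were 9330119M13Rik (0.0818) and Rab12 (0.0984), also over 3 arrays. Likeness over so few arrays is a description only.

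The starts of the called keratin genes are shown since both hold the letters of a TATA box. RefSeq's table (GRCm38.p6) held a promoter for 5 of the 6 genes, read here from 60 bases before to 20 after the gene's start, and the letters TATAAA were searched on both strands. Capitals mark the match on the gene's own strand.
Krt20, chr11:99438134-99438213, minus strand: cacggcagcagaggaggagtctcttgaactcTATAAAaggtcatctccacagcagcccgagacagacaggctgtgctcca
Krt8, chr15:102004323-102004402, minus strand: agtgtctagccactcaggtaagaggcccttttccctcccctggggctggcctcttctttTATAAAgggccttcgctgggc
In Krt20 the match begins 29 bases before the annotated start, and in Krt8 1 base before it, where it overlaps a match on the other strand. Of 32851 windows of the same length 4.49% hold TATAAA. The windows of Krt7, Krt18 and Krt23 hold no exact match, and near-matches were not searched. A match of letters is not a measured site, and the arrays hold no reading of factor binding.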

How the data were processed

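RNA of the populations labelled Lgr5-GFP and CD24hi was measured on 4 2-colour arrays, from 300 ng of total RNA per channel, per the labels' protocols. Per the file headers, Feature Extraction 10.5.1.1 read the scans. The deposited files give as intensity each spot's mean and local background as scanned, and a second set that the software background-subtracted and dye-normalized. The deposited log10 ratio was red over green of those processed values, and its deposited p-value per spot was not used. The series table held the authors' log2 ratio of red over green, as found by setting it against the log10 ratio (r 0.923 to 0.986 across probes, slopes 2.91 to 3.30). Its column medians were -0.01, 0.03, -0.01 and -0.01, swapped arrays were not turned, and how it was normalized and centred is unknown.

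In limma 3.58.1 (R 4.3.3), background was corrected by normexp (offset 50) after leaving out 77 spots of non-uniform local background on the first array of replicate 2. Global loess within each array followed (weight 0 for control spots), without the spots marked as outliers. Ratios were turned to Lgr5-GFP over CD24hi. Each first array was averaged with its swap where both had a value. Of the 20616 tested probes, 6965 had a value on the dye swap of replicate 1. The others took replicate 1 from its first array alone, which is not balanced for dye. The 2 replicate ratios were tested against 0 (2-sided, 1 residual and 4.62 prior degrees of freedom, Benjamini-Hochberg over 20616 probes, threshold 0.05). Tested probes were well above background in 1 population or both on every array. Limma called 9551 probes (11165 at an unadjusted p under 0.05). The test was checked on simulated ratios with the same spread for every probe and no dye or array effects. That check therefore does not cover arrays as unlike as these. Lists used the brightest kept probe of each gene and gave counts and medians, with no test of a list. Names were renewed through RefSeq for 25097 probes, and 16077 kept the file's name. Probe positions are those of the file's annotation (mm9). The number of arrays limits the precision, and arrays give no interval from counts.

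By the plan, the members were named without their values, and the wider lists with earlier results of these data known. One gene of the partner list is not reported here. Named genes were every probe of the 6 keratins, Lgr5 and Cd24a, other keratins with a kept probe, and of each list up to 4 called and 2 further members. Macf1, Pkp2, Pkp4 and Vil1 were named beyond that rule, after their values were seen. The 3 genes nearest to Krt20 and to Krt8 by pattern completed the rule, of which 1 has no gene symbol and is not named. Alternatives changed the background correction, signal source, normalization, filters, unit of the fit and arrays used.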

Additional observations from a re-analysis of the deposited data

How the results depend on the processing

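Under 16 alternatives for the keratin probes (15 for the dimmer probe of a pair), Krt20 and both Krt8 probes kept their direction. With non-uniform backgrounds kept, limma called 1203 probes (716 higher, 487 lower) in place of 9551, with 0 keratin probes higher and 0 lower, and Krt18 turned to 0.11. With marked spots kept it called 4590 (1839 higher, 2751 lower), 1 keratin probe was lower, and Krt23 turned to -0.038. Leaving out 1 array in turn gave 1066 to 11518 probes called, 556 to 5666 higher and 510 to 5852 lower, with 0 to 3 keratin probes higher and 0 to 2 lower. The low ends came without the first array of replicate 1, where 6965 probes had a value to test, Krt23 turned to -0.038 and Krt7's 3′ probe to -0.023, which was 0.39 without the dye swap of replicate 1. The 3 higher keratin probes came without the dye swap of replicate 1, and 1 was called lower without the dye swap of replicate 2. An offset of 16, and a filter on both populations, gave 2 keratin probes higher. The processed signals gave 0 lower and turned Krt23 to -0.000841, and 1 probe per gene gave 1 lower. Krt23 also turned with the series table (-0.073) and with median centring (-0.087), and was -0.045 and 0.18 in replicates 1 and 2 alone. Median centring and the processed signals moved the median over all probes from -0.05 to -0.23, and the series table to -0.14. With median centring Krt20 was called (0.89; limma, adjusted p = 0.00132). With median centring 15.2% of genes were called higher and 37.1% lower, against 21.9% and 26% as reported. The causes were not tested. Replicate 1 or 2 alone leaves no residual degree of freedom and gave values with no test.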
